A study of Caenorhabditis elegans with 2 samples.

Results

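The mitochondrial unfolded protein response of Caenorhabditis elegans is described here through 10 genes, which are the chaperones hsp-6, hsp-60 and dnj-10, the proteases clpp-1, lonp-1 and ymel-1, and the signalling genes ubl-5, dve-1, haf-1 and atfs-1. The list goes by gene name and its rule uses no measured value, though it was drawn up with earlier results of these data known. All 10 were found among the 46748 gene identifiers of the count table. The animals were whole hermaphrodites, aged 5 days, of a wild-type strain that the labels leave unspecified and the sample titles call N2. They had been given heat-inactivated Escherichia coli OP50, the usual laboratory food bacterium, and 2 RNA libraries were sequenced, both in the same group. The design holds no contrast between conditions. The labels do not say whether the worms of each library were grown apart, so differences between the libraries may be technical. The p-values below set such differences against counting noise only.

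The mitochondrial unfolded protein response is a signalling route by which stressed mitochondria call for more chaperones and proteases from the nucleus. Its main transcription factor, ATFS-1, carries both a mitochondrial and a nuclear targeting signal. In healthy animals it is imported into mitochondria and degraded there, and when import falters it reaches the nucleus instead. In worm laboratories the response is most often read from the hsp-6 and hsp-60 promoters, and its activation has been linked to lifespan. The control of ATFS-1 through import acts on the protein, so the level of its transcript does not measure it. For the transcripts of hsp-6 and hsp-60, the design holds no other group to compare with. The transcript levels given here thus do not measure whether the response was on.

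Replicate 1 held 28164638 counts and replicate 2 held 31271070. CPM are counts scaled to the library total, so that 3 counts, taken as the floor, equal 0.107 CPM in replicate 1 and 0.0959 CPM in replicate 2. Of 19641 protein-coding genes, 12268 (62.5%) had at least 10 counts in both libraries and are called detected. Levels below are CPM divided by the kilobases of exon in each gene (CPM/kb), which allows genes of different length to be compared. Errors are the SD of the 2 libraries. An SD of 2 values can fall well below counting error where they happen to agree, so a small one is no sign of precision. The median level of the detected protein-coding genes was 11.5 CPM/kb. Markers of the tissues of a whole hermaphrodite were checked. The 3 intestinal markers ran from 19.4 to 6231 CPM/kb, the 4 oocyte and germline markers from 128 to 1737 CPM/kb, the 3 neuronal markers from 1.81 to 192 CPM/kb, the 2 body muscle markers from 9.51 to 95.7 CPM/kb and the 2 hypodermal markers from 1.22 to 51.1 CPM/kb. Of the 3 sperm markers 1 was detected, and they ran from 0.139 to 0.261 CPM/kb. In RNA of whole animals, fewer cells of a type and less RNA per cell cannot be told apart.

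All 10 genes of the response were detected, and their levels spanned 139.7-fold, from hsp-6 at 229.7 ± 9.98 CPM/kb to dve-1 at 1.64 ± 0.172 CPM/kb (n = 2). The span depends on the length given to dve-1, which stood at 2.26 CPM/kb by its longest transcript. The median of the 10 genes was 39.98 ± 1.03 CPM/kb, with the SD taken over the medians of the single libraries, beside 11.5 CPM/kb over all detected protein-coding genes. Of the 10, 8 lay above that overall median, where by construction 50% of detected genes lie. The top 10% of detected genes begins at 97.6 CPM/kb, and 2 members were in it. The members together took 0.137% of the counts in replicate 1 (95% Wilson interval 0.136 to 0.138%) and 0.141% in replicate 2 (0.1398 to 0.142%). Of the member counts, hsp-6 and hsp-60 held 68.5% in replicate 1 and 69.3% in replicate 2. Intervals cover counting error only.

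**Figure D1:**
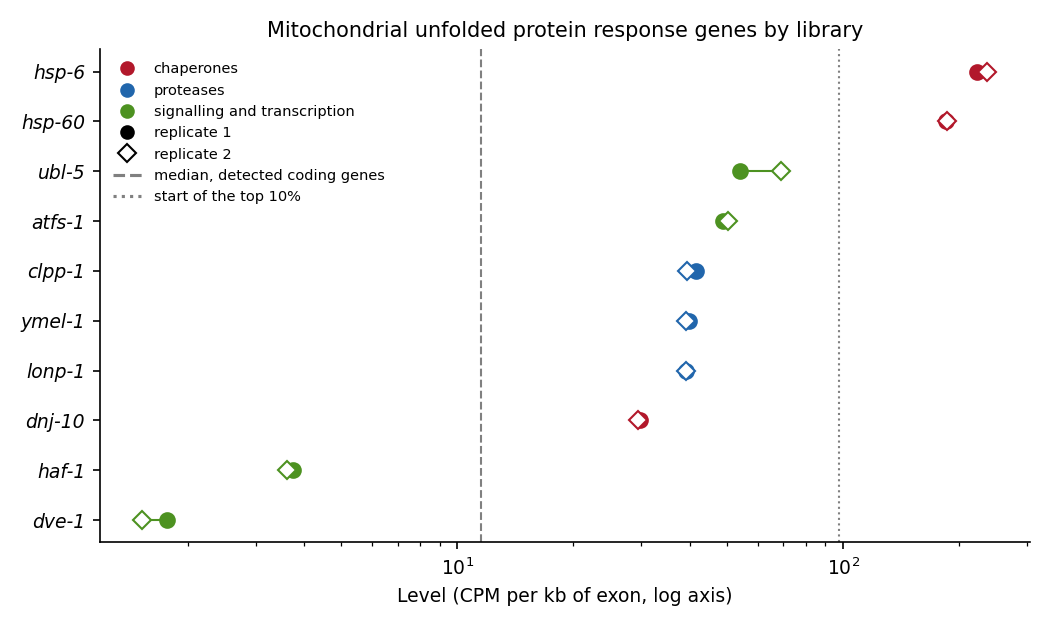
Level of each of the 10 genes in replicate 1 (filled circles) and replicate 2 (open diamonds), as CPM per kb of exon on a log axis, coloured by role. The dashed line is the median of detected protein-coding genes (11.5 CPM/kb) and the dotted line the start of the top 10% (97.6 CPM/kb). The 2 large chaperone genes stand right of the dotted line, and haf-1 and dve-1 stand left of the dashed line.

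The chaperones include the member pair with the highest levels. hsp-6 encodes the mitochondrial HSP70, which pulls proteins through the import channel and folds them in the matrix. It lies on chromosome V from 4824124 to 4826760 (minus strand, WBcel235), has 4 exon blocks, and encodes a protein of 657 residues. It had 15424 counts in replicate 1 and 18211 in replicate 2, which gave levels of 223 and 237 CPM/kb. It ranked 425th of the 12268 detected protein-coding genes. The 3 protein-coding genes with the most similar levels over the 2 libraries, by Euclidean distance of log2 CPM/kb, were plin-1 (231 ± 6.51 CPM/kb), F52A8.1 (234 ± 10.1 CPM/kb) and snr-7 (233 ± 14.9 CPM/kb).

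hsp-60 encodes the mitochondrial chaperonin, a barrel in which matrix proteins fold. Its locus is chromosome III from 1619742 to 1625803 (plus strand), with 4 annotated transcripts. Its counts were 11025 and 12348 in replicates 1 and 2, and its levels were 185 and 186 CPM/kb, at rank 555. In both libraries hsp-6 was the higher of the pair, by 1.21-fold in replicate 1 and 1.27-fold in replicate 2.

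dnj-10 encodes a mitochondrial J-domain protein, a partner that stimulates HSP70. Its locus is chromosome III from 8631165 to 8633565. With 1426 and 1557 counts, it stood at 29.8 CPM/kb in replicate 1 and 29.3 CPM/kb in replicate 2. The level of hsp-6 was thus 7.46-fold that of its J-domain partner in replicate 1 and 8.07-fold in replicate 2. Among the 27 other J-domain genes, all detected, the median was 39.2 CPM/kb, with dnj-5 highest at 165 ± 1.12 CPM/kb and dnj-24 lowest at 3.61 ± 0.536 CPM/kb.

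The cofactors of these chaperones were measured as well. Y22D7AL.10, which encodes the HSP10 lid of the chaperonin, had 114 CPM/kb in replicate 1 and 140.5 CPM/kb in replicate 2. It is the next protein-coding gene to hsp-60 on its upstream side, 812 bp away and on the opposite strand, so the 2 genes point away from each other. The level of hsp-60 was 1.62-fold that of Y22D7AL.10 in replicate 1 and 1.33-fold in replicate 2. C34C12.8, which encodes the GrpE-type nucleotide exchange factor of mitochondrial HSP70, stood at 42.5 and 52.7 CPM/kb in replicates 1 and 2. The prohibitin genes phb-1 (167 ± 0.692 CPM/kb) and phb-2 (173 ± 7.04 CPM/kb), whose products form a scaffold in the inner membrane, were the highest of the 6 other chaperone and prohibitin genes, whose median was 99.2 CPM/kb.

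The 3 protease genes stood at nearly the same level. lonp-1 encodes the LON protease of the matrix, which degrades damaged proteins and also ATFS-1. Its levels were 39.2 and 39.1 CPM/kb in replicates 1 and 2, from 3373 and 3738 counts. ymel-1 encodes an ATP-dependent protease of the inner membrane that faces the intermembrane space. With 2903 and 3162 counts, its levels were 39.9 and 39.1 CPM/kb. clpp-1 encodes the peptidase subunit of the ClpXP protease, and in worms its product is needed for the response to be signalled. It had 925 and 974 counts and levels of 41.5 and 39.4 CPM/kb. The means of the 3 genes lay within 1.03-fold of each other. In both libraries clpp-1 was highest and lonp-1 lowest, and the values of these 2 genes did not overlap, while those of ymel-1 overlapped with both. With the gene lengths implied by the deposited RPKM that order turned round, with lonp-1 at 39.1, ymel-1 at 38.4 and clpp-1 at 37.95 CPM/kb.

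By gene structure the proteases are unlike each other. clpp-1 has 791 bp of exon and encodes 221 residues (chromosome II, 10300714 to 10302842), ymel-1 has 2584 bp and encodes 723 residues (chromosome III, 10416139 to 10421757), and lonp-1 has 3059 bp in 13 exon blocks and encodes 971 residues (chromosome I, 10676922 to 10682374). Before division by length, lonp-1 had 119.6 ± 0.159 CPM and clpp-1 had 31.99 ± 1.199 CPM.

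Partner and sister proteases spanned a wider range. D2030.2, one of the pair of genes for ClpX, the unfoldase that feeds ClpP, stood at 57.6 ± 1.297 CPM/kb, and the other, K07A3.3, had 1 count in replicate 1 and 3 counts in replicate 2. The level of clpp-1 was 0.733 times that of D2030.2 in replicate 1 and 0.673 times in replicate 2. spg-7, which encodes a matrix-facing AAA protease of the inner membrane, had 38.98 ± 1.47 CPM/kb. The ratio of ymel-1 to spg-7 was 1.05 in replicate 1 and 0.978 in replicate 2, so their order differed between the libraries. ppgn-1, the paraplegin gene, was lower at 19.5 ± 0.108 CPM/kb. Of the 8 genes of this list 7 were detected, with a median of 22.01 CPM/kb and immp-1, a subunit gene of the inner membrane peptidase, lowest at 8.98 ± 0.53 CPM/kb.

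The signalling genes fell into a higher and a lower pair. ubl-5 encodes a ubiquitin-like protein that acts with DVE-1 in the response. It lies on chromosome I from 5607826 to 5608841 and, with 327 bp of exon and 73 residues, is the shortest of the 10 genes. It had 499 counts in replicate 1 and 705 in replicate 2, and levels of 54.2 and 68.9 CPM/kb. That was the widest relative spread of any member, with a coefficient of variation of 16.96%. The 9 other ubiquitin-like genes had a median of 404 CPM/kb, from urm-1 at 43.5 ± 4.37 CPM/kb to the ubiquitin fusion gene ubq-2 at 1784 ± 24.7 CPM/kb.

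atfs-1 encodes the bZIP transcription factor at the centre of the response. The gene spans 14193663 to 14197700 on chromosome V, with 7 annotated transcripts and a longest protein of 488 residues. Its counts were 2642 and 3025, and its levels were 48.7 and 50.2 CPM/kb in replicates 1 and 2. That level was 4.30-fold the median of detected genes, and hsp-6 was above it by 4.57-fold in replicate 1 and 4.71-fold in replicate 2.

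Of 25 other bZIP genes 24 were detected, with a median of 9.97 CPM/kb, and 20 of them had a lower mean level than atfs-1. The highest was skn-1, a regulator of oxidative stress genes, at 109 ± 4.52 CPM/kb. The lowest was atf-8 at 0.461 ± 0.00994 CPM/kb, from only 13 and 14 counts in replicates 1 and 2. xbp-1, the factor of the endoplasmic reticulum (ER) response that becomes active through splicing of its mRNA, had 105 ± 2.62 CPM/kb, so the level of atfs-1 was 0.470 and 0.468 times that of xbp-1 in replicates 1 and 2. atf-6, the membrane-bound factor of the ER response, was lower, and atfs-1 exceeded it 5.35-fold and 5.53-fold. zip-3, a bZIP gene whose product restrains ATFS-1, stood at 10.7 CPM/kb in replicate 1 and 13.5 CPM/kb in replicate 2.

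haf-1 and dve-1 were the lowest members and the pair below the median of detected genes. haf-1 encodes an ABC transporter of the mitochondrial inner membrane that exports peptides from the matrix. It lies on chromosome IV from 17376427 to 17379310. It had 222 and 239 counts, and levels of 3.74 and 3.63 CPM/kb in replicates 1 and 2. At its end, 64 of its 2108 exon bases are shared with C30H6.9 on the opposite strand (25.8 ± 0.159 CPM/kb), and without the strand setting reads there cannot be told apart. It was the member with exon bases shared with another gene, and the others had none. The 6 detected of 7 other haf genes had a median of 9.39 CPM/kb, from haf-7 at 4.94 ± 0.148 CPM/kb to haf-2 at 82.3 ± 4.21 CPM/kb, so haf-1 was below all of them, while haf-8 had no counts.

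dve-1 encodes a homeodomain protein that gathers at opened chromatin in stressed animals. It lies on chromosome X from 427035 to 433812 and has 10 annotated transcripts, the most of any member. Its counts were 165 in replicate 1 and 158 in replicate 2, and its levels 1.77 and 1.52 CPM/kb, at rank 9329 of the 12268. The level of ubl-5 was 30.7-fold that of its partner dve-1 in replicate 1 and 45.3-fold in replicate 2. The level depends on the length assigned to this gene. It was 2.26 CPM/kb with the longest transcript (2414 bp) in place of the union of all exons (3319 bp), and dve-1 stayed the lowest member. The nearest genes in level were F35H8.2 (1.65 ± 0.16 CPM/kb), F49E12.10 (1.66 ± 0.197 CPM/kb) and K08B5.2 (1.63 ± 0.193 CPM/kb).

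From highest to lowest the order was hsp-6, hsp-60, ubl-5, atfs-1, clpp-1, ymel-1, lonp-1, dnj-10, haf-1 and dve-1. Of the 9 pairs of neighbours, 7 did not overlap between the libraries, and the pairs clpp-1 with ymel-1 and ymel-1 with lonp-1 did. The widest step was from dnj-10 to haf-1, with a ratio of means of 8.03. The narrowest steps that did not overlap were atfs-1 over clpp-1 (ratio of means 1.22), hsp-6 over hsp-60 (1.24) and ubl-5 over atfs-1 (1.24). With 2 libraries these differences between genes were not tested, and overlap here takes no account of counting error.

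Several members lie close to other genes on the chromosome. lonp-1 has neighbours on its own strand on both sides, spcs-1 at 97 bp upstream (72.4 ± 2.05 CPM/kb) and ttc-1 at 110 bp downstream (40.3 ± 2.63 CPM/kb). mdt-22, on the opposite strand, overlaps the clpp-1 locus by 673 bp without sharing exon bases. ubl-5 lies 499 bp downstream of vha-10, a subunit gene of the vacuolar proton pump, at 184 ± 1.0003 CPM/kb. dve-1 and ymel-1 are more isolated on the upstream side, with the nearest coding gene 12404 and 8890 bp away.

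The 13 other regulators of the response, all detected, had a median of 39.8 CPM/kb, beside 39.98 CPM/kb for the members. They ran from jmjd-3.1, a histone demethylase gene, at 2.54 ± 0.108 CPM/kb, to hda-1, the histone deacetylase gene, at 154 ± 0.905 CPM/kb. met-2 (39.5 ± 0.262 CPM/kb) and lin-65 (30.1 ± 1.31 CPM/kb), which in worms change chromatin during mitochondrial stress, and the SUMO protease gene ulp-4 (66.3 ± 0.416 CPM/kb) lay between. Of these 13 genes 10 were above the median of detected genes, beside 8 of the 10 members.

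Genes of the respiratory chain and of import had higher median levels than the members, and the other mitochondrial proteases given above a lower one. The 34 nuclear respiratory chain genes had a median of 192 ± 3.93 CPM/kb, all above the median of detected genes and 25 in the top 10%. They ran from ucr-2.2 at 27.5 ± 0.00379 CPM/kb to atp-2 at 1026 ± 0.937 CPM/kb. The 11 detected import genes of 12 had a median of 79.7 CPM/kb, with tomm-20, a receptor of the outer membrane, highest at 123 ± 0.206 CPM/kb and dnj-21 lowest at 23.9 ± 1.19 CPM/kb. The other one, tin-9.2, had no counts. A set of 10 genes whose loss is known to switch the response on had a median of 134 CPM/kb, and its lowest member, clk-1, stood at 27.4 ± 0.0944 CPM/kb. This set is not separate from the other lists. It shares cox-5B, isp-1, nuo-6 and atp-2 with the respiratory chain, timm-23 with import, phb-1 and phb-2 with the prohibitins and spg-7 with the proteases. As these lists differ in exon length (medians of 1006, 736 and 1032 bp, beside 2114.5 bp for the members), errors in length weigh on them unequally.

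The HSP70 genes of other compartments lay both above and below hsp-6. Its level was 1.19-fold and 1.25-fold that of hsp-3 and 1.08-fold and 1.16-fold that of hsp-4 in replicates 1 and 2, both being HSP70 genes of the ER. It was 0.1403 and 0.149 times that of hsp-1, the constitutive cytosolic HSP70 gene (1585 ± 2.44 CPM/kb). hsp-110, a cytosolic relative, had 156.5 ± 2.23 CPM/kb, stc-1, another HSP70 family gene, had 30.02 ± 0.75 CPM/kb, and hsp-70, a heat-inducible HSP70 gene, was at 1.74 ± 0.149 CPM/kb. The level of hsp-60 lay among those of the 8 subunits of the cytosolic chaperonin, which ran from cct-3 at 80.1 ± 2.27 CPM/kb to cct-5 at 294 ± 1.18 CPM/kb with a median of 184.8 CPM/kb. The 15 genes of the ER response had a median of 105 ± 2.62 CPM/kb, from atf-6 at 9.09 ± 0.0183 CPM/kb to the calreticulin gene crt-1 at 667 ± 0.735 CPM/kb. The ER list shares hsp-3 and hsp-4 with the HSP70 list, xbp-1 and atf-6 with the bZIP list, and dnj-7 and dnj-27 with the J-domain list. Its median is the level of xbp-1. The bZIP list also shares skn-1 and zip-3 with the other regulators, and the J-domain list shares dnj-21 with import. No difference between lists was tested.

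**Figure D2:**
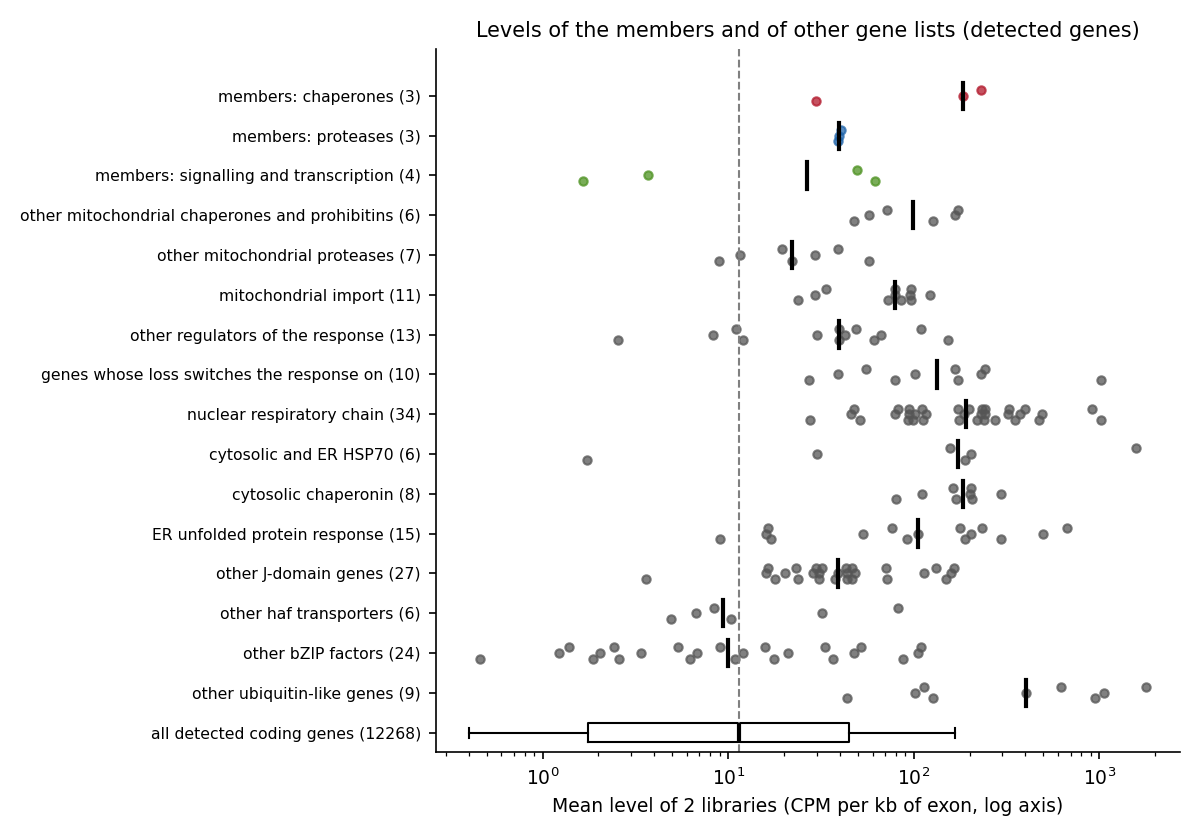
Mean level over the 2 libraries of each detected gene (points) in the members' role groups and in the other lists, as CPM per kb of exon on a log axis, with the median of each list as a black bar and the number of detected genes in brackets. The bottom box shows all detected protein-coding genes (median, quartiles and whiskers at the percentiles 5 and 95), and the dashed line is their median. The protease members lie together near 40 CPM/kb, and the signalling members split into a pair above and a pair below the dashed line.

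The libraries were compared gene by gene. The counts of 14397 genes in replicates 1 and 2 were compared by an exact binomial test (two-sided, TMM-scaled library sizes, Benjamini-Hochberg adjustment over all of them). A gene was called if it passed 0.05 after adjustment and differed 2-fold or more. As the test knows no noise other than that of counting, it compares these libraries and not conditions. Of all genes tested, 109 (0.757%) were called, and of the 10 members 0. At an adjusted p under 0.05 with no minimum fold, 1618 genes passed (11.2%), of which 926 were lower in replicate 1 (6.43%) and 692 higher (4.81%). Of the members 2 passed, hsp-6 and ubl-5, both lower in replicate 1. At an unadjusted p under 0.05 (exact binomial test), 2991 of the 14397 genes tested and 2 of the 10 members passed. With edgeR's exact test 0 members and 57 genes were called, but its common dispersion comes from the same 2 libraries, so the difference tested is also part of its noise term and the 0 is no further support.

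For hsp-6 the log2 ratio of replicate 1 over replicate 2 was -0.081 ± 0.0158 (counting SE, exact binomial adjusted p = 9.64e-06). Among 579 protein-coding genes with summed counts within 2-fold of its own, itself included, 71.5% had a smaller absolute ratio. For ubl-5 the ratio was -0.34 ± 0.0844 (exact binomial adjusted p = 0.00117). Among 2464 protein-coding genes of like count, itself included, 96.5% had a smaller absolute ratio. The other 8 members lay within 2 counting standard errors of 0. Of the 10 members 6 were higher in replicate 1 and 4 lower, and hsp-60 (-0.0050) and lonp-1 (0.010) were closest to 0.

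The library ratio moved with exon length across all genes. Among detected protein-coding genes, the median log2 ratio was -0.17 for the 710 genes with up to 500 bp of exon, -0.078 for 2653 genes from 500 to 1000 bp, 0.013 for 2020 genes from 2000 to 3000 bp and 0.094 for 370 genes above 5000 bp. ubl-5 belongs to the shortest class, in which 76.8% of genes had a ratio below 0 and 22.5% a ratio below that of ubl-5. Relative to the median of the 200 detected genes nearest in exon length, the gene itself included, the ratio of ubl-5 was -0.12. That of hsp-6 was -0.093. The ratio of clpp-1, the other member under 1000 bp, was 0.084 and became 0.16 on that scale. The part of exon length in these ratios was not tested.

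**Figure D3:**
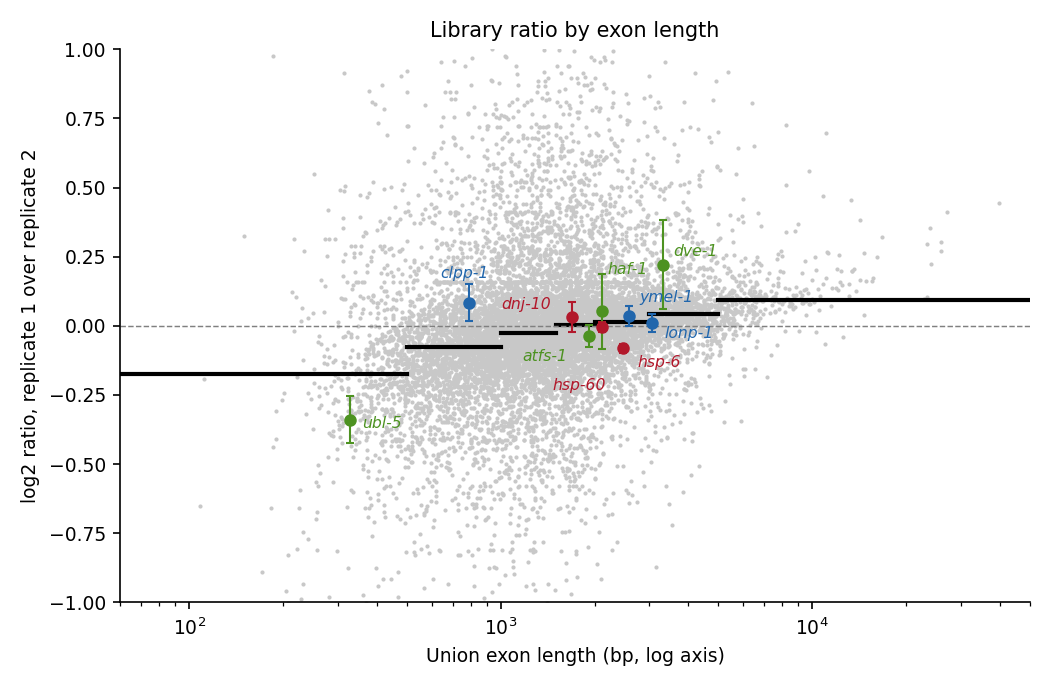
Log2 ratio of replicate 1 over replicate 2 (TMM-scaled counts) against union exon length on a log axis for detected protein-coding genes (grey) and the 10 members (coloured by role as in the plot of member levels, bars are counting standard errors). Black lines are medians per length class, and 94 genes beyond a log2 ratio of 1 in either direction lie outside the axis. The medians rise with length, and ubl-5, the shortest member, has the lowest ratio of the 10.

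Other genes of the pathway, and those of the ER response, were read from the same test. Among all genes tested, 6.43% passed at an adjusted p under 0.05 as lower in replicate 1 and 4.81% as higher. These shares cover genes of all counts, and the test passes smaller ratios where counts are high. No share among genes of like count was taken for the lists, so the numbers below show no shift of a pathway. Of the 11 import genes tested, 4 passed at an adjusted p under 0.05 (exact binomial test), all lower in replicate 1, and these were tin-13 (log2 ratio -0.48, 427 bp), tin-9.1 (-0.43, 342 bp), tin-10 (-0.25, 420 bp) and timm-17B.1 (-0.14, 906 bp). Of the 6 other chaperone and prohibitin genes 3 passed, also lower in replicate 1. These were Y22D7AL.10 (-0.30, 558 bp), C34C12.8 (-0.30, 885 bp) and, with a smaller ratio, phb-2 (-0.076, 1134 bp). Of the 34 respiratory chain genes 9 passed as lower and 2 as higher in replicate 1. Small ratios passed in both directions, such as cox-4 (-0.072, 9287 and 10898 counts) and atp-1 (0.039, 52696 and 57232 counts). Among the 13 other regulators, which had a median exon length of 2960 bp, 1 passed as lower and 3 as higher, and among the 7 other mitochondrial proteases tested 0 passed. The 15 genes of the ER response had a median exon length of 2232 bp, and 4 passed as lower and 0 as higher. Those 4 were pdi-6 (log2 ratio -0.087, 1643 bp), enpl-1 (-0.061, 2653 bp), pdi-1 (-0.049, 1577 bp) and pdi-3 (-0.040, 1706 bp). Of the genes in these lists, 0 were called at 2-fold.

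The deposited RPKM values give a different picture of the same libraries for several members. Division of counts by RPKM returned read totals that changed with the row of the table, in a cycle of 8 rows. Of the 8 row classes, 1 used the own total of replicate 1 and another 1 that of replicate 2 (within 0.1%), and 0 used both. For dnj-10 the deposited values were 28.1 RPKM in replicate 1 and 39.1 RPKM in replicate 2, a ratio of 0.72, whereas CPM from the counts gave 1.02. For ymel-1 the ratio was 1.17 from deposited RPKM and 1.02 from CPM, and for dve-1 it was 0.821 and 1.16. In 5 of the 10 members the deposited ratio lay on the other side of 1 from the ratio of CPM. The differences between replicates in deposited RPKM are thus set in part by the read totals used, and levels here rest on the counts.

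**Figure D4:**
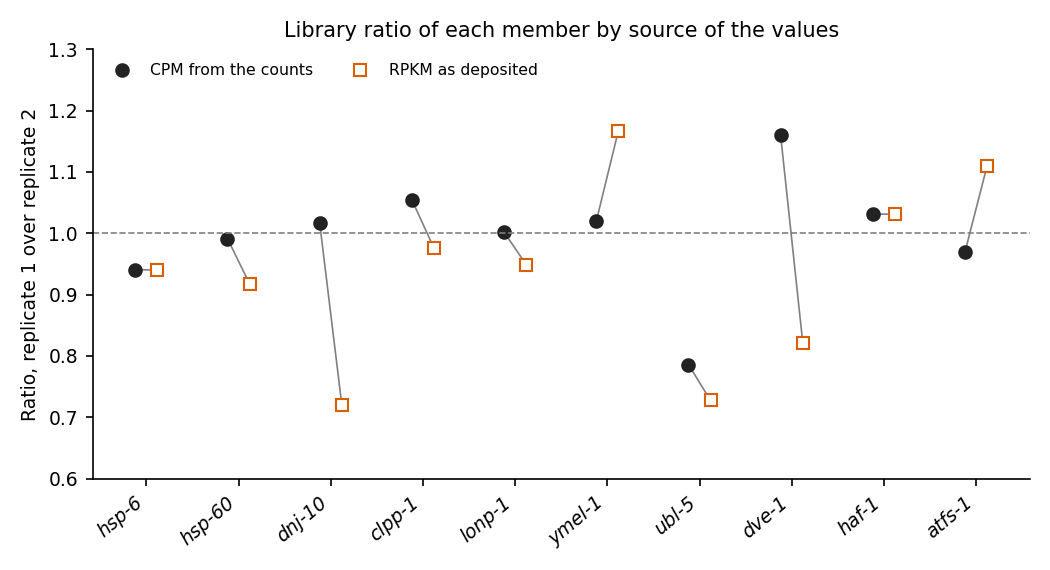
Ratio of replicate 1 over replicate 2 for each of the 10 members, from CPM computed from the counts (filled circles) and from RPKM as deposited (open squares), joined by lines. The dashed line marks equal values. The points of hsp-6 and haf-1 nearly coincide, whereas dnj-10, ymel-1, dve-1 and atfs-1 separate.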

How the data were processed

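Whole-worm RNA of 2 libraries in 1 group was analysed. Per the submitters' processing notes, STAR 2.4.1d, featureCounts 1.4.6-p4 and build WBcel235 were used; the sources used here give no counting options, strand setting or annotation release. The deposited counts per gene are raw. How the authors computed the deposited RPKM values is not given either; they served as an alternative and to recover gene lengths. Exon lengths, coordinates and overlaps came from Ensembl release 115 (WBcel235), which held 46449 of 46748 identifiers. CPM used each column's own total (28164638 and 31271070) and was divided by union exon length. Libraries were compared with exact binomial tests (scipy 1.17.1) on TMM sizes (edgeR 4.0.16) for genes whose summed count was 10 or more, with 0.5 added to counts in ratios. DESeq2 1.42.0 gave alternative size factors. The test was checked on simulated counts that held counting noise only, so the check does not cover other spread between these libraries. Replicate numbers follow accession order. Text names all members and, of each list, the highest and lowest detected gene, genes called, and genes of the same protein family or complex. Partner and regulator genes beyond that rule were chosen after their values were seen. Members and lists were chosen with earlier results of these data known. Of 192 list genes, 2 had no matching symbol and were not analysed. Alternatives covered length, scaling, filters, fold threshold, test and single libraries.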

Additional observations from a re-analysis of the deposited data

How the results depend on the processing

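The median member level of 39.98 CPM/kb moved by less than the spread between libraries under the alternatives tried, except that it was 38.8 CPM/kb with lengths implied by the deposited RPKM. It ran from 39.3 to 40.7 CPM/kb with either replicate left out. The order of the members changed in 3 pairs with the implied lengths and in 2 pairs with RPKM as deposited, and in 0 pairs under the others, including either replicate left out. The number of genes called between the libraries was 109. It was 31 with at least 100 counts in the sum, 202 at 1.5-fold, 1618 with no fold threshold and 57 with edgeR's exact test, whose dispersion comes from the same libraries. Members called remained 0 in number except with no fold threshold, where 2 passed. Leaving out a replicate gives no test between libraries, so it was not run for these counts. The level of dve-1 was 1.64 CPM/kb with union exons, 2.26 with the longest transcript and 2.302 with the implied length, and the cause is the shorter length. The length-matched ratios were added after seeing the data. No paired analysis was possible because there is 1 group. Depth limits haf-1 and dve-1 most, whose counts were between 158 and 239 per library.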
